A study of Rattus norvegicus with 2 samples.

Results

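The mRNA of 7 receptors for metabolic and pituitary hormones was described across the cell types of the juvenile female rat hypothalamus. The receptors were listed by name, with earlier results of these data known but with no measured value in the rule, and they are 7 of the 32883 genes listed in both libraries. They comprise the leptin receptor *Lepr*, the growth hormone receptor *Ghr*, the prolactin receptor *Prlr*, the insulin receptor *Insr*, the ghrelin receptor *Ghsr* and the melanocortin receptors *Mc3r* and *Mc4r*. Hypothalamic tissue with the anteroventral periventricular nucleus (AVPV) and the arcuate nucleus (ARC) came from female Sprague Dawley rats at PND 29. The SC300 rats had been implanted at PND 0.5 with a silicone capsule loaded with 300 µg of estradiol benzoate. Control rats had a capsule with sesame oil. Both treatments are given as in the methods. The sample labels call the Control library intact and the SC300 library EB300, whereas the deposited design text mentions only vehicle for the SC300 capsule. The direction of each comparison rests on these labels and the methods. Hypothalami of 3 rats per group were pooled and dissociated with collagenase, and each pool gave 1 library of single-cell 3′ RNA sequencing, so that variation between rats was not measured and the groups were not tested against each other.

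*Lepr*, *Ghr* and *Prlr* belong to the class I cytokine receptors, which signal through JAK2 and STAT proteins. *Insr* encodes a receptor tyrosine kinase that acts through insulin receptor substrates and PI3 kinase, and *Ghsr*, *Mc3r* and *Mc4r* encode G protein-coupled receptors. In the ARC, neurons with agouti-related peptide (*Agrp*) drive feeding and neurons with proopiomelanocortin (*Pomc*) restrain it, and both are textbook targets of leptin. Melanocortin peptides made from *Pomc* activate MC3R and MC4R, and AGRP is their antagonist. Prolactin acts on dopamine neurons that in turn inhibit its secretion, and growth hormone acts on neurons that control its own release.

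After barcodes with fewer than 200 detected genes were left out, 4296 of 4488 Control and 4379 of 4524 SC300 barcodes remained, with 51382276 and 56390355 unique molecular identifiers (UMIs, counted RNA molecules). Each barcode was assigned to a cell type from its marker genes (the gate), and UMIs were summed per type and library and scaled to CPM, which relates the UMIs of a gene to all UMIs of the group. The gate found 425 neurons in Control and 427 in SC300, and 549 and 403 barcodes stayed unassigned. All intervals given are exact 95% intervals that cover counting error only, and beside a count of 0 the level or share that 3 UMIs or barcodes would give is stated as what it allows. The libraries shared 7 barcode sequences, which held 4 UMIs of the receptors. The gate took in few mural cells (45 in Control, 56 in SC300), so graph clusters named from the same markers are given beside the vascular values. Of the 339 barcodes in the mural cluster, the gate called 96 mural and 64 endothelial and left 166 unassigned. The erythroid gate also held barcodes with endothelial markers, and its receptor values are not read as those of red cells. Counts of 3′ ends cannot separate the isoforms of *Lepr*, *Ghr* or *Prlr*.

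Depth differed widely between the receptors (Ensembl gene identifiers as in the files). *Insr* (ENSRNOG00000029986) had 509 UMIs in Control and 554 in SC300. *Ghr* (ENSRNOG00000015654) had 341 and 387 UMIs, and *Lepr* (ENSRNOG00000023664) had 245 and 246. *Prlr* (ENSRNOG00000057557) had 137 UMIs in Control and 208 in SC300, and *Mc4r* (ENSRNOG00000018692) had 60 and 37. *Mc3r* (ENSRNOG00000004451) had 3 and 6 UMIs, and *Ghsr* (ENSRNOG00000024119) had 4 in each library. The first 5 were therefore measurable at the level of cell types, whereas *Ghsr* and *Mc3r* were near the limit of detection.

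**Figure D1:**
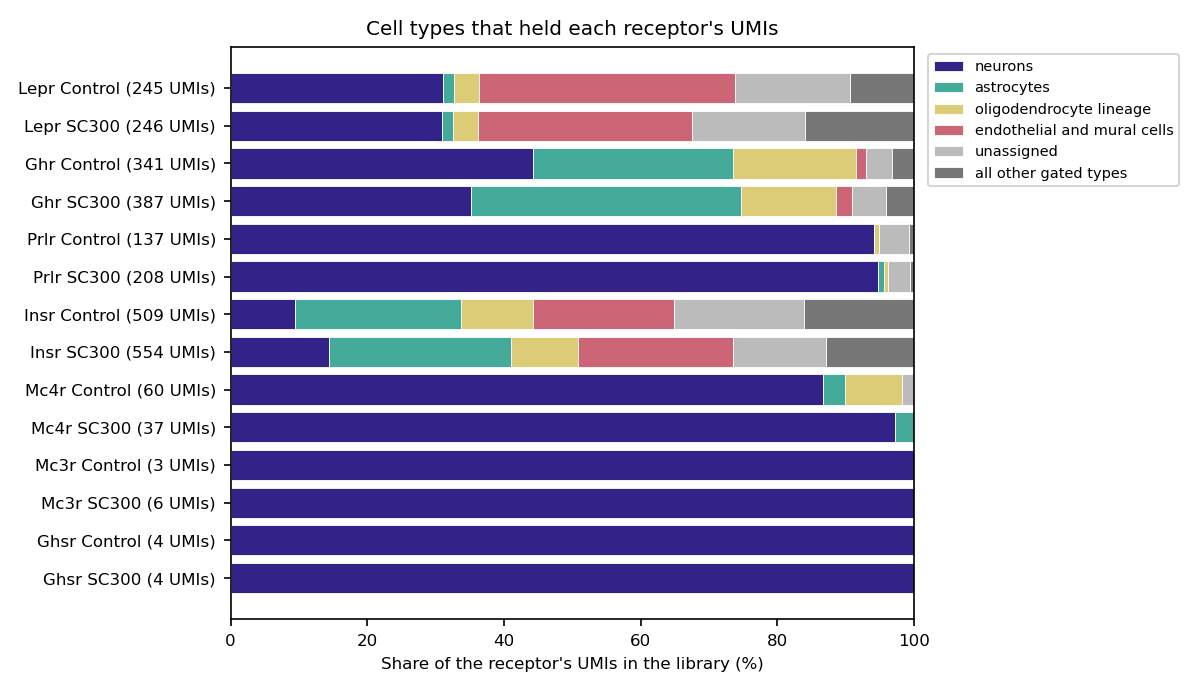
Share of each receptor's UMIs (%, x axis) held by the gated cell types, for 7 receptors and 2 libraries (rows, with the total number of UMIs). Neurons held at least 86.7% of the UMIs of *Prlr*, *Mc4r*, *Mc3r* and *Ghsr*, whereas *Lepr* was divided mainly between vessels and neurons, *Ghr* between neurons and glia, and *Insr* between vessels, glia and neurons.

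*Lepr* was mainly a transcript of blood vessels and neurons. In endothelial cells it reached 31.6 CPM in Control (interval 25.3 to 39.0, 86 UMIs in 318 barcodes) and 25.4 CPM in SC300 (20.01 to 31.8, 76 UMIs in 286 barcodes). The endothelial level was above that of all neurons, which was 6.50 CPM in Control (5.12 to 8.13) and 6.32 CPM in SC300 (4.98 to 7.91). Endothelial cells had 35.1% and neurons 31.0% of the *Lepr* UMIs in Control, and each had 30.9% in SC300. Neurons were 9.82% of all barcodes and endothelial cells 6.96%, and unassigned barcodes held 41 *Lepr* UMIs in each library. For mural cells the 2 assignments differed. Gated mural cells had 20.5 CPM in Control (7.53 to 44.7, 6 UMIs) and 2.21 CPM in SC300 (0.056 to 12.3, 1 UMI). The mural cluster had 22.2 CPM in Control (57 UMIs in 164 barcodes) and 17.1 CPM in SC300 (60 UMIs in 175 barcodes), next to 28.9 and 26.6 CPM in the endothelial cluster. Gated stromal cells, the fibroblasts of the meninges and vessel walls, held 3 UMIs in 14 Control barcodes and 15 UMIs in 36 SC300 barcodes, or 14.6 and 32.1 CPM.

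Glia held little *Lepr*. Astrocytes, the largest type with 1268 and 1447 barcodes, had 4 UMIs in each library, or 0.39 CPM in Control and 0.35 CPM in SC300. Mature oligodendrocytes had 6 UMIs per library, and the gated tanycytes, the ependymoglial cells of the third ventricle floor, had none in 54 Control and 36 SC300 barcodes. The broader tanycyte cluster had 0 UMIs in 286 Control barcodes and 3 UMIs in 178 SC300 barcodes (1.09 CPM, 0.22 to 3.17). Of the barcodes in this cluster, the gate called 218 ependymal and 86 tanycytes and left 142 unassigned. Among endothelial cells, 20.4% of Control and 21.0% of SC300 barcodes had a *Lepr* UMI. In newly formed oligodendrocytes, which had the lowest *Lepr* level of the types with at least 100 barcodes per library when both libraries were summed, the shares were 0.72% and 0%, where 0 of 143 barcodes allows a share of up to 2.10%. Endothelial barcodes were the shallower of the pair, with median depths of 5989 and 7240 UMIs against 10617 and 11550. After each barcode was thinned to 2000 UMIs, 6.69% and 5.19% of the endothelial barcodes still had a *Lepr* UMI.

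Among neurons grouped by peptide, the *Lepr* level was highest in those with *Agrp*. Most neuronal *Lepr* UMIs were still in the other neurons, with 48 of 76 in Control and 42 of 76 in SC300. Neurons with at least 10 *Agrp* UMIs were taken as *Agrp* neurons, and 20 were found in each library. The split was clear, since the median was 316 *Agrp* UMIs per *Agrp* neuron in Control and 143.5 in SC300, against 0 in the other neurons of either library. *Lepr* was at 50.1 CPM in Control *Agrp* neurons (33.3 to 72.5, 28 UMIs) and at 74.1 CPM in those of SC300 (51.3 to 103, 34 UMIs). The other neurons had 4.31 CPM in Control (3.18 to 5.71) and 3.63 CPM in SC300 (2.62 to 4.91). *Agrp* neurons were thus 11.6-fold higher in Control (7.03 to 18.9) and 20.4-fold higher in SC300 (12.6 to 32.8). The transcript was detected in 10 of 20 *Agrp* neurons in Control and 13 of 20 in SC300.

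*Pomc* neurons were few, with 7 in Control and 10 in SC300. In Control they held 12 *Lepr* UMIs in 3 of 7 neurons, or 44.7 CPM (23.1 to 78.1), a level whose interval overlaps that of the *Agrp* neurons. In SC300 no *Lepr* UMI was found in the 10 *Pomc* neurons, which allows up to 7.07 CPM. Neurons with *Cartpt*, which encodes the CART peptide and overlapped the *Pomc* set in 8 neurons, had 17.0 CPM in Control (27 UMIs in 43 neurons) and 3.44 CPM in SC300 (10 UMIs in 58 neurons). The *Pomc* difference rests on very few cells, with 3 *Lepr*-positive *Pomc* neurons in the whole Control library. In the *Cartpt* sets, *Lepr* was found in 12 Control and 6 SC300 neurons. Their intervals did not overlap (11.2 to 24.8 and 1.65 to 6.33 CPM). With at least 50 *Cartpt* UMIs per neuron they did (5.63 to 19.0 and 1.30 to 7.70 CPM). How often all genes differ so between the libraries was not computed for any peptide set. Differences within these sets are therefore not read as a result about the receptors. The other sets had little *Lepr*. Somatostatin (*Sst*) neurons held 1 UMI in 51 Control neurons and 0 in 62 of SC300, neurons with *Kiss1* or *Th* held none, and those with *Ghrh* held 1 in Control.

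*Ghr* had a different distribution, with its highest glial level in oligodendrocyte precursors. Their level was 26.7 CPM in Control (20.1 to 34.8, 54 UMIs in 313 barcodes) and 19.6 CPM in SC300 (14.2 to 26.4, 43 UMIs in 325 barcodes). It was near 0 in newly formed and mature oligodendrocytes, the later stages of the same lineage. Mature oligodendrocytes had 0.92 and 0.95 CPM, and newly formed oligodendrocytes had 0 and 1 UMIs. Astrocytes had 9.82 CPM in Control (7.99 to 11.9, 100 UMIs) and 13.4 CPM in SC300 (11.4 to 15.7, 153 UMIs). Microglia, which defend the tissue and clear debris, had no *Ghr* UMI in 472 barcodes of either library, which allows a share of up to 0.64%. By comparison, 15.3% and 12.3% of the precursors had a *Ghr* UMI at median depths similar to those of microglia (6433 and 6729 against 7064 and 7503 UMIs), and 3.96% and 4.39% did so after thinning to 2000 UMIs.

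Among neurons, GABAergic cells as a whole had more *Ghr* than glutamatergic cells, and this difference was smaller without the *Agrp* neurons. GABAergic neurons had 16.5 CPM in Control (13.5 to 19.9) and 13.7 CPM in SC300 (10.9 to 17.1), and glutamatergic neurons had 8.08 CPM (5.63 to 11.2) and 6.70 CPM (4.64 to 9.36). The intervals of the 2 neuron types did not overlap in either library. *Agrp* neurons, which are GABAergic, stood above both, with 85.9 CPM in Control (63.4 to 114, 48 UMIs) and 111 CPM in SC300 (82.7 to 146, 51 UMIs). This was 9.29-fold (6.46 to 13.2) and 15.1-fold (10.5 to 21.6) the level of the other neurons. The transcript was present in 18 of 20 *Agrp* neurons in each library. Without the *Agrp* neurons, the GABAergic level of *Ghr* was 10.5 CPM in Control (8.11 to 13.5) and 7.61 CPM in SC300 (5.48 to 10.3), with intervals that overlap those of glutamatergic neurons. *Ghr* and *Lepr* were found together in 9 Control and 12 SC300 *Agrp* neurons, and in 14 and 17 of all neurons.

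Neurons with *Ghrh*, the growth hormone-releasing hormone, also carried *Ghr*, in 8 of 10 Control and 8 of 17 SC300 neurons. Their level was 77.4 CPM in Control (47.9 to 118, 21 UMIs) and 24.6 CPM in SC300 (13.5 to 41.3, 14 UMIs). These intervals did not overlap, but no share of all genes was computed for this set. Neurons with *Sst*, whose product inhibits growth hormone release, had 16.4 CPM in Control (28 UMIs) and 14.4 CPM in SC300 (33 UMIs). Neurons with thyrotropin-releasing hormone (*Trh*) had 28.4 CPM in Control, from 22 UMIs in 25 neurons, and 3.13 CPM in SC300, from 1 UMI in 16 neurons. *Trh* itself was at 265 CPM in Control neurons and 44.4 CPM in SC300 neurons, and *Ghrh* at 222 and 635 CPM, so the sets also differed in the gene that defined them. *Pomc* and *Kiss1* neurons had no *Ghr* UMI in either library, in 7 and 7 Control and 10 and 9 SC300 neurons.

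**Figure D2:**
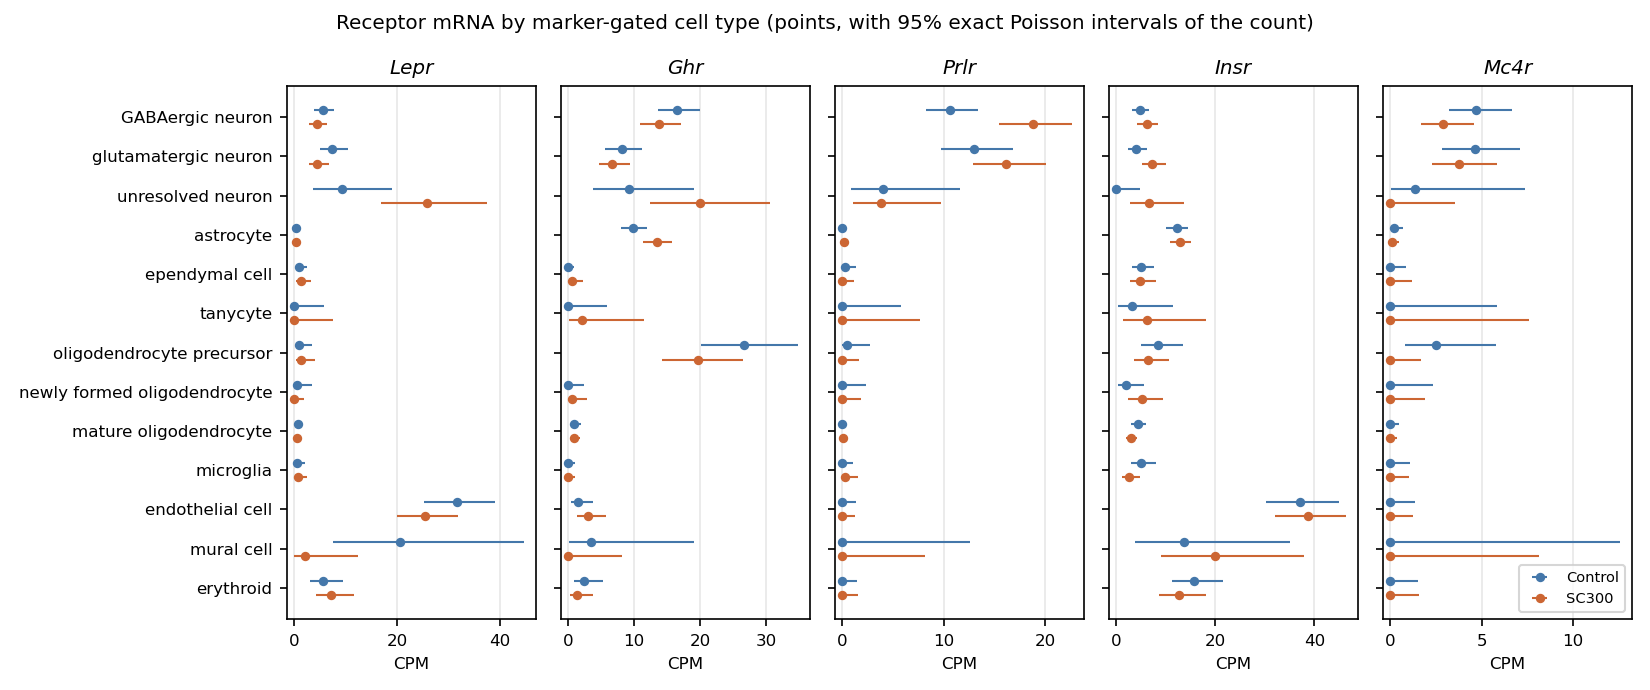
CPM (x axis, linear) of 5 receptors in 13 gated cell types with at least 20 barcodes per library (y axis), with points for the 2 libraries and bars for exact 95% Poisson intervals. *Lepr* and *Insr* were high in endothelial cells, *Ghr* in oligodendrocyte precursors, neurons and astrocytes, and *Prlr* and *Mc4r* in neurons.

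*Prlr* was almost confined to neurons in these libraries. They held 129 of 137 UMIs in Control and 197 of 208 in SC300, and the remainder was mostly in unassigned barcodes (6 and 7 UMIs). No *Prlr* UMI was seen in 318 Control and 286 SC300 endothelial barcodes, which allows shares of up to 0.94% and 1.05%. Of the neurons, 16.9% in Control and 20.8% in SC300 had a *Prlr* UMI. The median depth was 26355 and 24594 UMIs in neurons and 5989 and 7240 UMIs in endothelial cells, and after thinning to 2000 UMIs the shares of neurons were 1.18% and 3.76%. GABAergic and glutamatergic neurons had similar levels of *Prlr* within each library (10.6 and 12.9 CPM in Control, 18.8 and 16.2 CPM in SC300), with overlapping intervals.

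The *Prlr* transcript was unevenly spread over the peptide sets. *Th* encodes tyrosine hydroxylase of the dopamine neurons. The 16 *Th* neurons of Control had 22.1 CPM (12.4 to 36.5), from 15 UMIs in 4 neurons. In SC300, 6 *Th* neurons had 77.2 CPM (47.8 to 118), from 21 UMIs in 3 neurons. Of the 22 *Th* neurons, 8 were also in the galanin (*Gal*) set, 7 in the *Cartpt* set, 6 in the *Ghrh* set and 3 in the *Sst* set. *Th* itself was at 44.3 CPM in Control neurons and 16.6 CPM in SC300 neurons, and *Kiss1* at 74.5 and 25.9 CPM. The *Th* and *Kiss1* sets thus also differed in the gene that defined them. *Pomc* neurons had 44.7 CPM in Control (23.1 to 78.1) and 33.0 CPM in SC300 (18.0 to 55.4). *Kiss1* neurons, which release kisspeptin and control gonadotropin release, had *Prlr* in 6 of 7 neurons in Control and 3 of 9 in SC300. Their level was 45.8 CPM (20.9 to 86.9) and 14.4 CPM (3.91 to 36.8), from 9 and 4 UMIs, and the intervals overlapped. *Sst* neurons went the other way, with 4.09 CPM in Control (1.64 to 8.43, 7 UMIs) and 13.1 CPM in SC300 (8.86 to 18.7, 30 UMIs). *Agrp* neurons, which had high levels of *Lepr* and *Ghr*, had only 3 *Prlr* UMIs per library, or 5.37 and 6.53 CPM. Their intervals (1.11 to 15.7 and 1.35 to 19.1) overlap those of the other neurons.

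**Figure D3:**
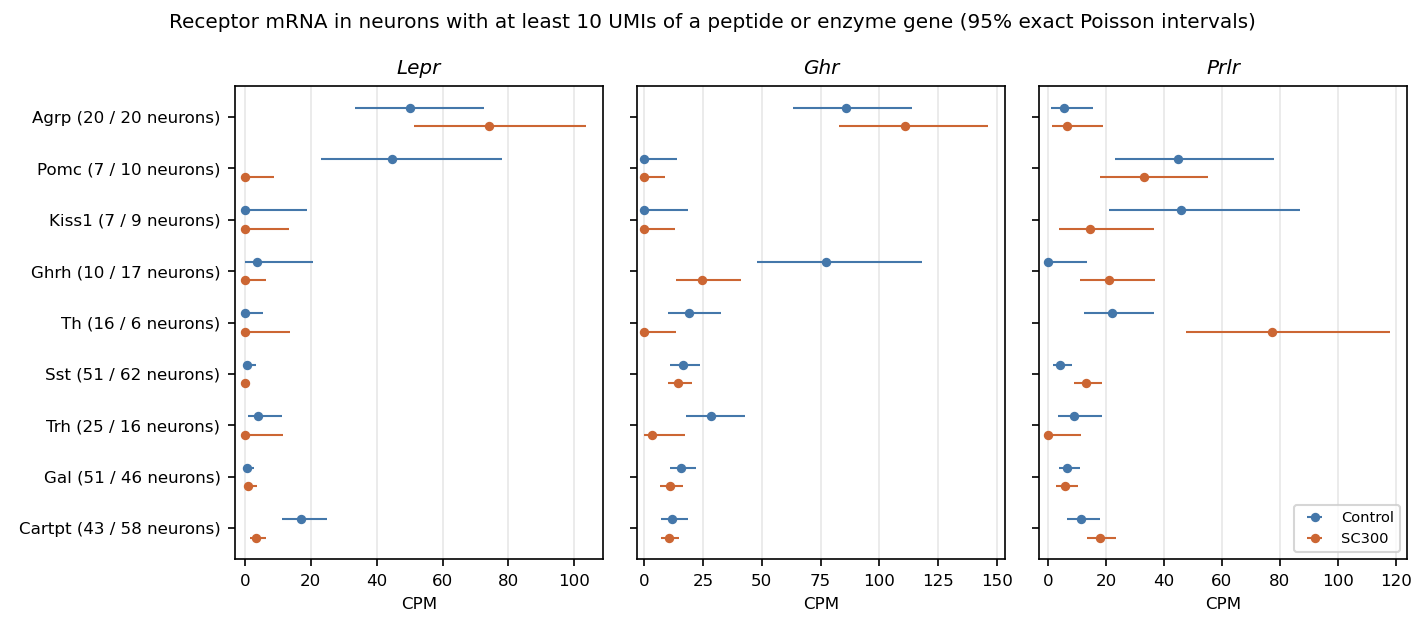
CPM (x axis) of *Lepr*, *Ghr* and *Prlr* in neurons with at least 10 UMIs of a peptide or enzyme gene (y axis, with the number of neurons in Control and SC300), bars being exact 95% Poisson intervals. *Agrp* neurons were high for *Lepr* and *Ghr* in both libraries and had few *Prlr* UMIs, while the sets with 6 to 17 neurons had wide intervals.

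*Insr* was the most widely detected of the receptors, with its highest level in vessels. Endothelial cells had 37.1 CPM in Control (30.2 to 45.1, 101 UMIs) and 38.8 CPM in SC300 (32.0 to 46.5, 116 UMIs). Gated mural cells had 13.7 CPM (3.73 to 35.0, 4 UMIs) and 19.9 CPM (9.11 to 37.8, 9 UMIs). In the graph clusters, mural cells had 39.4 and 36.8 CPM and endothelial cells 36.1 and 32.7 CPM, and the intervals of these clusters overlapped. Astrocytes had 12.2 CPM (10.1 to 14.5) and 12.9 CPM (10.9 to 15.1), and with their numbers they held 24.4% and 26.5% of all *Insr* UMIs. Oligodendrocyte precursors had 8.40 and 6.39 CPM, and neurons, at 4.10 and 6.65 CPM, had less than astrocytes in both libraries. Of the types with at least 100 barcodes per library, mature oligodendrocytes were lowest when both libraries were summed, with 4.32 CPM in Control and 2.96 CPM in SC300. Within the libraries the lowest of these types were newly formed oligodendrocytes in Control (1.89 CPM, 3 UMIs) and microglia in SC300 (2.54 CPM, 9 UMIs). An *Insr* UMI was found in 7.95% and 6.28% of mature oligodendrocytes at median depths of 19858 and 20694 UMIs. Endothelial cells, though shallower, had one in 24.5% and 25.2% of barcodes, and after thinning to 2000 UMIs the shares were 7.69% and 5.19% against 0.28% and 0.87%. *Agrp* neurons had 7.16 and 8.71 CPM of *Insr*, from 4 UMIs in each library, with intervals that overlap those of the other neurons.

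*Mc4r* was a sparse neuronal transcript. Neurons held 52 of 60 UMIs in Control and 36 of 37 in SC300, or 4.45 CPM (3.32 to 5.83) and 2.99 CPM (2.10 to 4.14). A UMI was found in 24 Control and 27 SC300 neurons, and the Control count was carried by fewer cells, with 32.7% of the neuronal UMIs in 3 barcodes and up to 8 in 1 barcode. Outside neurons, oligodendrocyte precursors had 5 UMIs in 5 Control barcodes and none in SC300. *Mc4r* was seen in neurons with *Sst* (14 and 10 UMIs) and *Cartpt* (17 and 14 UMIs), whereas *Agrp* neurons had 1 and 0 UMIs and *Pomc* neurons none. The count of 0 allows up to 6.53 CPM in SC300 *Agrp* neurons. In *Pomc* neurons it allows up to 11.2 CPM in Control and 7.07 CPM in SC300. These limits lie above the levels over all neurons. *Mc3r* and *Ghsr* were found in neurons only. The 9 *Mc3r* UMIs were in 3 Control and 5 SC300 neurons, and *Agrp* neurons held 3 UMIs of the 3 in Control and 1 of the 6 in SC300. The 8 *Ghsr* UMIs were in 8 neurons, 7 of them GABAergic, at 0.34 and 0.33 CPM over all neurons. With so few molecules, levels of *Mc3r* and *Ghsr* were not compared between the libraries.

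Neurons with a mitochondrial share of UMIs above 20% differed from the others in *Lepr*. They had 22.6 CPM in Control (15.1 to 32.4, 118 neurons) and 25.9 CPM in SC300 (18.4 to 35.6, 131 neurons), against 4.52 and 3.60 CPM in neurons at or below 20%. The same order held outside the *Agrp* neurons (14.8 and 11.7 CPM against 3.02 and 2.55 CPM) and within them (156 and 229 CPM against 34.8 and 33.1 CPM). The values of 156 and 229 CPM rest on 11 and 22 UMIs. The shares of neurons with a *Lepr* UMI were similar on both sides of 20%. In *Agrp* neurons they were 3 of 6 and 6 of 9 above it, against 7 of 14 and 7 of 11. In the other neurons they were 8 of 112 and 8 of 122 above it, against 23 of 293 and 19 of 285. For *Ghr*, the *Agrp* neurons above 20% had 85.3 and 135 CPM and those below had 86.0 and 105 CPM. For *Insr*, all neurons above 20% had 5.44 CPM in Control (2.19 to 11.2) and 13.7 CPM in SC300 (8.34 to 21.1). Neurons at or below 20% had 3.94 CPM (2.83 to 5.34) and 5.68 CPM (4.33 to 7.31), and only the SC300 intervals did not overlap. Of the 20 *Agrp* neurons, 6 in Control and 9 in SC300 were above 20%. Neurons above 20% were also shallower, with median depths of 8479 and 7758 UMIs against 31319 and 31760. The part of depth and of the mitochondrial share in the *Lepr* and *Insr* values was not tested. Neurons whose *Slc32a1* and *Slc17a6* counts did not decide their type, 38 in Control and 58 in SC300, had median mitochondrial shares of 42.9% and 43.9% and *Lepr* at 9.25 CPM (7 UMIs) and 25.7 CPM (27 UMIs). These unresolved neurons included 3 *Agrp* neurons in Control and 7 in SC300. Of the 28 and 34 *Lepr* UMIs in *Agrp* neurons, 26 and 15 were in GABAergic ones and the rest in unresolved ones. The unresolved *Lepr* UMIs of both libraries thus included those of *Agrp* neurons, and the unresolved level without these neurons was not computed.

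**Figure D4:**
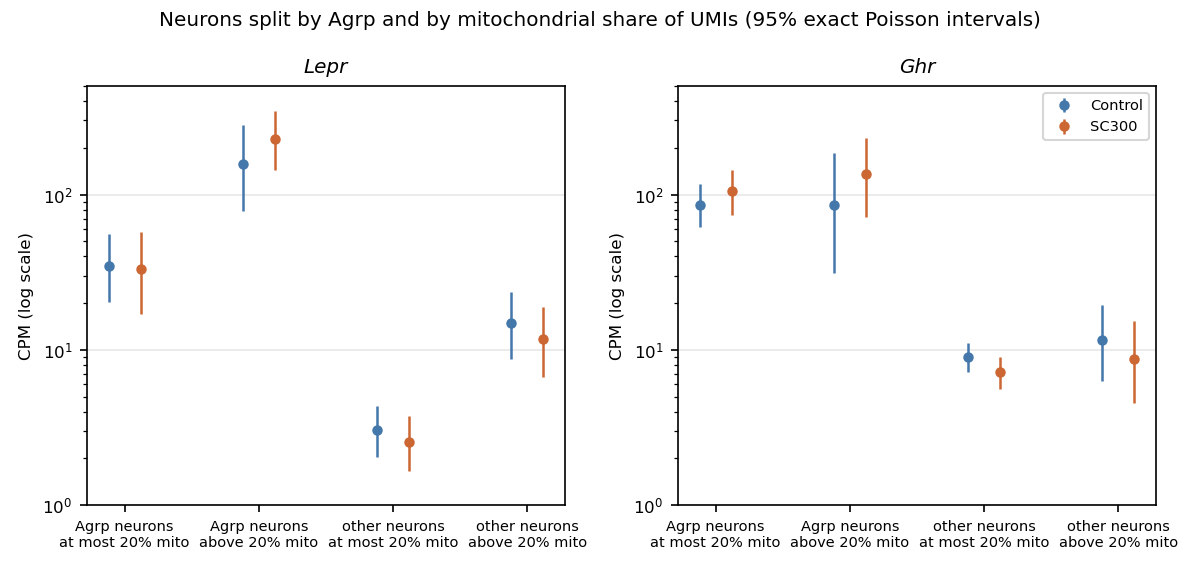
CPM (y axis, log scale) of *Lepr* and *Ghr* in *Agrp* neurons and other neurons at most or above 20% mitochondrial UMIs, by library, with exact 95% Poisson intervals. *Lepr* was higher above 20% within both sets of neurons and in both libraries (for instance 229 against 33.1 CPM in SC300 *Agrp* neurons), and the *Ghr* intervals overlapped.

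SC300 was then compared with Control for each receptor as the log2 ratio of SC300 over Control CPM, with 1.5-fold as the threshold where both libraries together held at least 50 UMIs. Over all barcodes, 1 of 5 receptors with that depth passed, against 6.52% of 14201 genes. It was *Mc4r*, which had 1.17 CPM in Control against 0.66 CPM in SC300 and thus a ratio of -0.83 (-1.46 to -0.22). Among neurons alone, the *Mc4r* ratio was -0.57 (-1.23 to 0.07), which is within 1.5-fold. For *Prlr*, 2.67 CPM in Control and 3.69 CPM in SC300 gave a ratio of 0.47 (0.15 to 0.79), within the threshold. *Lepr* (-0.13, -0.39 to 0.13), *Ghr* (0.05, -0.17 to 0.26) and *Insr* (-0.01, -0.19 to 0.16) had intervals that include 0 and end inside 1.5-fold.

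Of 15 values by cell type, 3 passed 1.5-fold, and all were in neurons. *Prlr* was higher in SC300 GABAergic neurons, where 70 Control and 111 SC300 UMIs gave a ratio of 0.83 (0.38 to 1.28). This was 1 of 4 receptors measured there, against 7.31% of all genes in that type. The 3 barcodes with the most *Prlr* held 22.9% of the UMIs in Control and 24.3% in SC300. With every barcode weighted alike the ratio was 0.41, within 1.5-fold. In glutamatergic neurons *Prlr* differed less (0.32, -0.19 to 0.84), and over all neurons the ratio was 0.57 (0.24 to 0.90).

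*Insr* was higher in SC300 glutamatergic neurons, where 17 Control UMIs (3.92 CPM) and 37 SC300 UMIs (7.29 CPM) gave a ratio of 0.89 (0.03 to 1.82). *Lepr* was lower in the same neurons, with 7.39 and 4.53 CPM (32 and 23 UMIs) and a ratio of -0.70 whose interval includes 0 (-1.54 to 0.11). These were 2 of 4 receptors, against 6.46% of all genes in glutamatergic neurons. Over all neurons, *Insr* was the 1 of 5 receptors past 1.5-fold (0.70, 0.16 to 1.24, with 48 and 80 UMIs), against 5.76% of all genes. Without neurons above 20% mitochondrial UMIs that ratio was 0.53, within 1.5-fold.

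No receptor passed 1.5-fold in the other types with enough UMIs. In endothelial cells, where 7.93% of all genes passed, *Lepr* had a ratio of -0.31 (-0.78 to 0.15) and *Insr* one of 0.06 (-0.33 to 0.46). In astrocytes (5.70% of all genes), *Ghr* had a ratio of 0.45 (0.08 to 0.83) and *Insr* one of 0.08 (-0.27 to 0.44). *Ghr* in oligodendrocyte precursors (4.52% of all genes) had a ratio of -0.44 (-1.06 to 0.16), the opposite sign of astrocytes, with an interval that includes 0. For *Insr* the ratio was -0.55 (-1.30 to 0.21) in mature oligodendrocytes (5.43% of all genes) and -0.30 (-1.04 to 0.42) in erythroid barcodes (21.2% of all genes). In *Agrp* neurons, *Lepr* (0.56, -0.20 to 1.34) and *Ghr* (0.37, -0.23 to 0.97) had ratios with intervals that include 0. Of the other peptide sets with at least 50 UMIs, *Ghr* in *Sst* (-0.18, -0.95 to 0.60) and *Gal* neurons (-0.53, -1.39 to 0.30) was within 1.5-fold. *Prlr* in *Cartpt* neurons (18 and 52 UMIs) passed it, at 0.66, with an interval that includes 0 (-0.14 to 1.52). The share of all genes past 1.5-fold was not computed for the peptide sets. In these pooled libraries a shift in the kinds of neuron captured and a change of RNA per cell cannot be told apart.

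**Figure D5:**
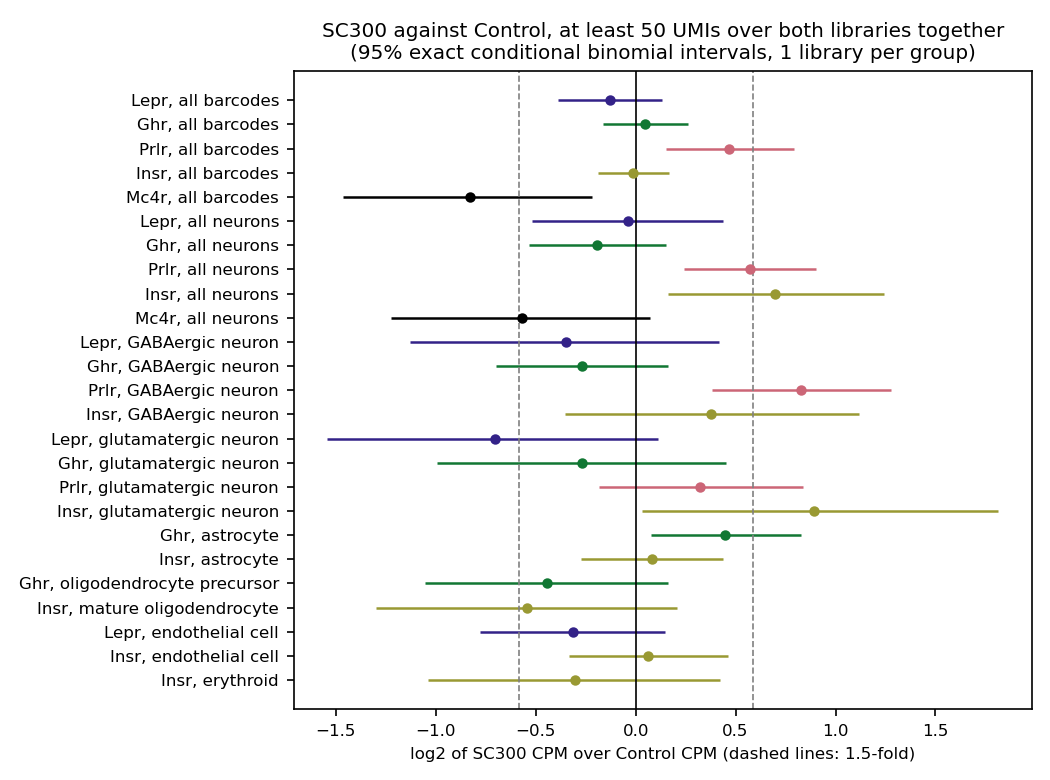
Log2 ratio of SC300 over Control CPM (x axis) for each receptor and cell group with at least 50 UMIs over both libraries (y axis), with exact 95% conditional binomial intervals and dashed lines at 1.5-fold. *Prlr* and *Insr* in neurons lay to the right and *Mc4r* over all barcodes to the left of 0, and most of the other intervals crossed 0.

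Lists of 70 genes of the same pathways (ligands, partner proteins, JAK-STAT signalling, feedback inhibitors, insulin signalling, melanocortin signalling and other metabolic hormone receptors), of which 67 are in the files, were compared in the leading cell types. In endothelial cells, 3 of 30 with enough UMIs were higher in SC300 past 1.5-fold and none was lower, against 7.93% of all genes in either direction. They were *Socs2*, a STAT5-induced feedback inhibitor of growth hormone signalling (11.8 and 21.7 CPM), and *Ramp1* (15.4 and 24.4 CPM) and *Ramp3* (6.98 and 14.7 CPM), partner proteins of calcitonin family receptors. In oligodendrocyte precursors none of 29 passed, against 4.52% of all genes. In neurons, 3 of 48 were higher and 2 were lower, against 5.76% of all genes in either direction. *Foxo1*, a transcription factor that insulin inhibits, was higher (4.45 and 8.48 CPM, 52 and 102 UMIs), as were *Ramp1* (10.9 and 17.1 CPM) and *Stat5a* (26 and 42 UMIs, interval of the ratio -0.09 to 1.42). *Pomc* was lower (478 and 277 CPM), as was *Stat5b* (39 and 24 UMIs, -1.54 to 0.03). Of the 5595 and 3328 neuronal *Pomc* UMIs, 5387 and 3100 were in the few *Pomc* neurons, 7 in Control and 10 in SC300.

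Astrocytes were added to these types after their *Ghr* values were seen. There, 4 of 41 list genes were higher and 1 was lower, against 5.70% of all genes in either direction. *Socs2* had 5.99 CPM in Control and 9.46 CPM in SC300 (0.66, 0.19 to 1.14), and *Socs1*, a feedback inhibitor of JAK kinases, had 5.30 and 11.5 CPM (1.11, 0.65 to 1.60). *Grb10* (17 and 35 UMIs), an adaptor that inhibits insulin signalling, and *Gnaq* (29 and 52 UMIs), a G protein subunit, were past 1.5-fold upwards, and *Stat5b* downwards (33 and 21 UMIs). The intervals of *Gnaq* (-0.005 to 1.39) and *Stat5b* (-1.68 to 0.015) include 0. The median list ratio of the feedback inhibitors in endothelial cells was 0.45 over 4 genes, beside 0.003 over all genes there. In astrocytes it was 0.14 over 5 genes, beside -0.02 over all genes, and in neurons 0.04 over 7 genes, beside -0.06. In oligodendrocyte precursors it had the other sign, -0.28 over 4 genes, beside -0.02 over all genes. This list was picked from those compared, and it was not the only list away from all genes. The ligands and prohormones were at -0.48 over 1 gene in endothelial cells and -0.38 over 2 genes in astrocytes. They were at -0.53 over 2 genes in neurons and 0.0008 over 1 gene in oligodendrocyte precursors. Only *Pomc* and *Agrp* of this list had more than a few UMIs. *Pomc* RNA was also spread beyond the *Pomc* neurons, to 18.5% of the other Control barcodes and 14.7% of the other SC300 barcodes. For *Agrp* outside the *Agrp* neurons these shares were 3.93% and 3.64%. Whether endothelial cells or glia made this RNA was not tested, so their values are not read as a ligand change in these cells.

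Signalling genes shared by the cytokine receptors were detected in the leading cell types. Apart from astrocytes no other type was compared, so a match to the sites of the receptors is not read from these values. *Jak2* had 35.6 and 38.8 CPM in endothelial cells, 26.3 and 24.8 CPM in neurons and 54.4 and 67.1 CPM in oligodendrocyte precursors. These precursors held only 2 and 3 *Lepr* UMIs and 1 and 0 *Prlr* UMIs. *Stat3*, the main STAT of leptin signalling, had 87.8 and 102 CPM in endothelial cells and 48.0 and 52.1 CPM in neurons. *Mrap2*, a melanocortin receptor accessory protein, had 27.4 and 40.4 CPM in neurons and no UMI in endothelial cells. Apart from *Pomc* and *Agrp*, the ligand and prohormone genes of the lists had few or no UMIs. *Lep*, *Prl* and *Ghrl* had no UMI in either library, *Gh1* had 1 in each, *Ins1* had 4 and 0, and *Ins2* had 3 and 4.

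The genes whose levels over 13 cell types were most like those of a receptor were picked by Pearson's r of log2(CPM + 1), both libraries summed. Their leading types follow from this choice and add no support to the division between vessels and neurons. *Hsf4* (r = 0.95), *Dysf* (0.95) and *Dok4* (0.95) were nearest to *Lepr*, and *Fat4*, *Ehd2* and *Lrrc38* (each 0.95) to *Insr*. All 6 were highest in endothelial or mural cells. *Cdh9*, *Sox14* and *Glra3* were nearest to *Prlr* (each 0.99) and were highest in neurons. For *Ghr* they were *Comtd1* (0.93), *Dcc* (0.93) and AABR07059159.1 (0.91), which were highest in different types (astrocytes, oligodendrocyte precursors and unresolved neurons). The cell types share libraries and differ in depth, so these values describe likeness only.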

How the data were processed

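Single-cell 3′ RNA sequencing was performed by the authors on 1 library per group, each from the pooled hypothalami of 3 female rats. Per the labels and methods, reads were aligned to the Ensembl 96 rat transcriptome with Cell Ranger (3.0.1 in the file headers and the submitters' processing notes), and the authors deposited raw UMI counts per gene and barcode. The methods state a minimum of 200 genes per barcode, which was applied here, and the cell numbers in the study's results differ from those that this filter left.

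Barcodes were gated by marker lists: at least 3 markers of a type with a UMI and a mean marker score at least 1.25 times that of the next type. Neurons were split by whether *Slc32a1* or *Slc17a6* had more UMIs. Of the types listed, choroid plexus and pituitary cells were not found. UMIs were summed per type and library as CPM. Poisson, Clopper-Pearson and conditional binomial intervals (95%, exact) cover counting error only, and a count of 0 was set to 3 UMIs in ratios and limits. Doublets called with Scrublet (70 in Control, 71 in SC300) were kept. Cluster names depend on a naming order set with the data in view and need not match those of the authors. The named genes were the 7 receptors in every type, the 3 genes nearest to each receptor with at least 100 UMIs, and list genes past 1.5-fold in the leading types. The receptors and lists were chosen with earlier results of these data known. The ratio code was tested on simulated data. Clusters were made with scanpy 1.11.5, and intervals with scipy 1.17.1, in Python 3.11.15 (with pandas 2.3.3 and numpy 2.4.6). Alternatives were other scalings, gates, clusters, filters on genes, mitochondrial share and doublets, equal weights per barcode, thinning and other minimum counts.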

Additional observations from a re-analysis of the deposited data

How the results depend on the processing

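Of 30 alternative values of the ratios over all barcodes, 28 stayed within the counting interval of the value reported. With every barcode weighted alike, *Prlr* had a log2 ratio of 0.062 and *Insr* one of -0.20. The 81 alternative values of ratios within cell types were all inside the interval reported, but some crossed 1.5-fold. *Mc4r* over all neurons passed it under 5 of 9 alternatives (lowest -0.74) and *Prlr* over all neurons under 3 (highest 0.63). *Insr* over all neurons no longer passed it with barcodes at most 20% mitochondrial (0.53). With every barcode weighted alike, neither *Lepr* in glutamatergic neurons (-0.33) nor *Prlr* in GABAergic neurons (0.41) did. In place of 3 values past 1.5-fold by cell type there was 1 of 12 with barcodes at most 20% mitochondrial, 7 of 23 with at least 20 UMIs and 0 of 15 at 2-fold. Under the mitochondrial limit, *Lepr* (-0.586, 20 and 16 UMIs) and *Insr* (0.79, 14 and 29 UMIs) in glutamatergic neurons were still past 1.5-fold. They left the count because they fell below 50 UMIs. The count was 2 with every barcode weighted alike, where *Ghr* in glutamatergic neurons passed in place of *Prlr* and *Lepr*, and 3 under the remaining alternatives. The share of all genes past the threshold was not computed under these alternatives. Their counts therefore have no background beside them and are not read as a result about the receptors. Thinned to 2000 UMIs, the share with a *Lepr* UMI in endothelial cells was 6.69% in Control and 5.19% in SC300, with *Insr* there at 7.69% and 5.19%. The share with *Ghr* in oligodendrocyte precursors was 3.96% and 4.39%, and of neurons 1.18% and 3.76% had *Prlr* and 0.94% and 0.47% had *Mc4r*. Thinned to 5000 UMIs, these shares were 16% and 10.95% (*Lepr*), 16% and 14.8% (*Insr*), 11.2% in Control (*Ghr*), 6.68% and 6.27% (*Prlr*), and 1.73% and 1.504% (*Mc4r*). The shares of barcodes therefore depend on depth. *Lepr* and *Ghr* in *Agrp* neurons stayed within their intervals with at least 50 *Agrp* UMIs per neuron. The Control order of *Lepr* changed with at least 50 UMIs of each peptide. *Agrp* neurons then had 43.0 CPM and 5 *Pomc* neurons 46.4 CPM, with overlapping intervals. *Prlr* in Control *Th* neurons left its interval with at least 50 *Th* UMIs per neuron (59.6 CPM in 2 neurons), and no SC300 neuron reached that minimum.

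The leading cell type was the same in 21 of 30 alternatives. Unresolved neurons, among them 3 Control and 7 SC300 *Agrp* neurons, led for *Lepr* and *Ghr* with every barcode weighted alike (40.4 and 32.4 CPM). They also led in SC300 on its own (25.7 and 20.02 CPM). GABAergic neurons led for *Prlr* under the stricter gate (14.99 CPM) and in SC300 on its own (18.8 CPM), and for *Mc4r* with every barcode weighted alike (3.57 CPM) and in Control on its own (4.69 CPM). Mural cells led for *Insr* in the graph clusters (37.9 CPM). The causes of these changes were not tested. No paired analysis was possible because each group is 1 library, and depth limits *Mc3r* and *Ghsr* to a statement of detection.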
